A study of Mus musculus with 4 samples.

Results

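The genes described here were 10 members of the oxygen-sensing pathway around hypoxia-inducible factor (HIF), chosen by symbol as HIF subunits, oxygen sensors and hypoxia targets that lie outside the glycolytic chain. They were Hif1a, Arnt, Vhl, Egln1, Egln2, Egln3, Hif1an, Vegfa, Bnip3 and Pdk1, out of 35798 named genes in the table. All 10 passed the filter on low counts, which kept 13822 genes for the test. Hif1a is also labelled in the glycolysis panel that the study drew from the same libraries, so its direction is not independent evidence.

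The data were bulk RNA-seq of Ly49H+ NK cells, which carry the receptor for a mouse cytomegalovirus (MCMV) protein. Wild-type cells came from CD45.1 mice and cells lacking the TNF receptor TNFR2 came from CD45.2 TNFR2 KO mice, and the methods give 6 to 12 weeks as the age of the study's mice. Both populations were placed in the same NSG hosts, infected with MCMV after 1 day and sorted from the spleen on D3.5 of infection. Each genotype had 2 libraries, each from a pool of 3 spleens, and same-numbered libraries of both genotypes shared a pool. NSG mice lack T, B and NK cells of their own but keep myeloid cells. By this design the sorted NK cells had been transferred and had seen the infection. Whether every sequenced cell was such a cell is not given. Genotype and CD45 allele, and with them the sort gate, cannot be told apart. Nothing in the sources says that the duplicates capture the variation between mice, so p-values measure the spread between these pools. Comparing the genotypes asks which transcripts of infected hosts' NK cells differ when TNFR2 is missing.

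HIF is a pair of proteins, an oxygen-regulated alpha subunit such as HIF-1α and the constant partner ARNT, that binds DNA and switches on hypoxia genes. When oxygen is present, the EGLN prolyl hydroxylases mark HIF-1α, and the VHL ubiquitin ligase then sends it for degradation. FIH, the product of Hif1an, hydroxylates an asparagine and so keeps the coactivators p300 and CBP off the alpha subunit. Among the targets, VEGFA is a secreted growth factor of blood vessels, BNIP3 is a mitochondrial receptor for mitophagy, and PDK1 is a kinase that turns off pyruvate dehydrogenase. Because HIF-1α is controlled largely as a protein, transcript levels do not measure HIF activity, and the same factor is also used by activated lymphocytes in normal oxygen.

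Promoter windows are shown for 3 target or feedback genes that were lower in TNFR2 KO cells (Egln3, Bnip3 and Vegfa) and for 2 genes of the same kinds that were not lower at the main scaling (Egln1 and Pdk1), so that their HIF-binding letters can be set beside their values. Each window runs from 250 bases before to 50 bases after a RefSeq start on GRCm38.p6, is written 5′ to 3′ on the strand of the gene, and has in capitals every match of the core letters ACGTG or GCGTG on either strand, with overlapping matches counted separately.
Egln3, chr12:54203825-54204124, minus strand: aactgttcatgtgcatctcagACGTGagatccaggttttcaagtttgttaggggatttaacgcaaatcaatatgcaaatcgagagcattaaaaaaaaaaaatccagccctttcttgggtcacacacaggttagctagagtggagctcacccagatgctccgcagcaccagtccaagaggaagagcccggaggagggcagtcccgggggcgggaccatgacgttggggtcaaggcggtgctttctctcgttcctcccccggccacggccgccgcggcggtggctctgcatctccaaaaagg
Bnip3, chr7:138909457-138909756, minus strand: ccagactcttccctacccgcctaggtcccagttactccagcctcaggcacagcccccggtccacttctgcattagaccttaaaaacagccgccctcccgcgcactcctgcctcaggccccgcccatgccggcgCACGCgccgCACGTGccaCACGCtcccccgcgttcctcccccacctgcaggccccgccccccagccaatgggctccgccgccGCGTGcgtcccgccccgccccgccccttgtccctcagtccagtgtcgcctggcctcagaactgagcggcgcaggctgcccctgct
Vegfa, chr17:46032328-46032627, minus strand: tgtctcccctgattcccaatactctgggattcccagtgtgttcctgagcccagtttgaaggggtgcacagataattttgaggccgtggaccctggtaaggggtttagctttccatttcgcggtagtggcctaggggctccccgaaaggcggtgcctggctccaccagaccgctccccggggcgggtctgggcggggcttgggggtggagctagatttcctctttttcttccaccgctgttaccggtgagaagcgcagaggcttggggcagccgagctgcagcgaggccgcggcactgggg
Egln1, chr8:124949205-124949504, minus strand: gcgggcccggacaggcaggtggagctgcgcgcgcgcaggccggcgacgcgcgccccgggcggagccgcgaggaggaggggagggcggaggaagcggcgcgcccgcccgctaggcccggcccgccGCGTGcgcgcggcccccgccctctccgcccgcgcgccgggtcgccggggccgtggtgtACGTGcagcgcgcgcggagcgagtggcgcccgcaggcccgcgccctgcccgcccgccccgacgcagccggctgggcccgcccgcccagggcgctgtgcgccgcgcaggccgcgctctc
Pdk1, chr2:71872974-71873273, plus strand: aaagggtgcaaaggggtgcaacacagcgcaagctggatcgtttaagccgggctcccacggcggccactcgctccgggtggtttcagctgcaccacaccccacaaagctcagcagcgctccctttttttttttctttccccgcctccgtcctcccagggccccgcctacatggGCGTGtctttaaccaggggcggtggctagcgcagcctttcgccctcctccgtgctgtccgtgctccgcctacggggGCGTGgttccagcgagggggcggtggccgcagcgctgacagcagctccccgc
RefSeq windows matched all 10 genes, with 13 windows in total. A core was present in 9 of the 13 windows and in at least 1 window of 8 of the 10 genes, with none for Vhl and Hif1an. Across 32851 windows of this length, 43.8% held either core, 19.6% held ACGTG and 32.4% held GCGTG. The Bnip3 window held 5 matches, the Egln1 and Pdk1 windows 2 each and the Egln3 window 1. The Vegfa window shown held none, whereas a second Vegfa start at chr17:46025114-46025413 had 2. Genes that were lower and genes that were not therefore both carried the core, and a match is a description of letters and not of a bound site.

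The targeted gene was examined first. Tnfrsf1b, which encodes TNFR2 (GRCm38 chr4:145213463-145246870, minus strand), was at 264.7 and 268.6 TMM-scaled CPM (counts scaled by edgeR to a common library size) in the wild-type libraries and at 55.1 and 58.6 CPM in the TNFR2 KO libraries. It was lower, though not absent, in both libraries labelled TNFR2 KO (log2-fold change -2.23, SE 0.0352, edgeR adjusted p = 1.35e-13). All log2-fold changes here are TNFR2 KO over wild-type.

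Across the 10 genes, Hif1a and the targets Egln3, Vegfa and Bnip3 were lower in TNFR2 KO cells, while Vhl, Egln1, Hif1an and Pdk1 were slightly higher. Arnt and Egln2 did not pass the test. At an adjusted p under 0.05 there were thus 4 genes lower and 4 higher at the main TMM scaling, while scaling on NK lineage genes put all 10 lower. Among all genes tested, 26.2% were lower and 24.2% higher at the same threshold (3624 and 3341 genes), so calls in either direction were common. Of the 4 higher genes, Egln1 alone kept its call with library size alone and with DESeq2, where the adjusted p was 0.149 and 0.133 for Vhl, 0.0945 and 0.0522 for Hif1an and 0.156 and 0.188 for Pdk1. The split over all genes moved to 4388 lower and 2419 higher with library size alone, and to 10878 lower and 375 higher once NK lineage genes set the scale. Only Vegfa also had an absolute log2-fold change over 1, which makes 1 gene lower and 0 higher past both thresholds, against 11.8% and 1.56% of all genes. The groups did not overlap for 4 genes that were lower and 5 that were higher, against 37.7% and 36.4% of all genes. The median log2-fold change of the 10 genes was 0.10, beside -0.003 over all genes. In bulk libraries fewer cells of a type and less RNA per cell cannot be told apart, and marker genes of other cell types also differed between the genotypes: summed macrophage or monocyte markers were at 2833 to 2886 CPM in wild-type libraries and at 984 to 1005 CPM where TNFR2 was missing, and their part in the values here was not tested.

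**Figure D1:**
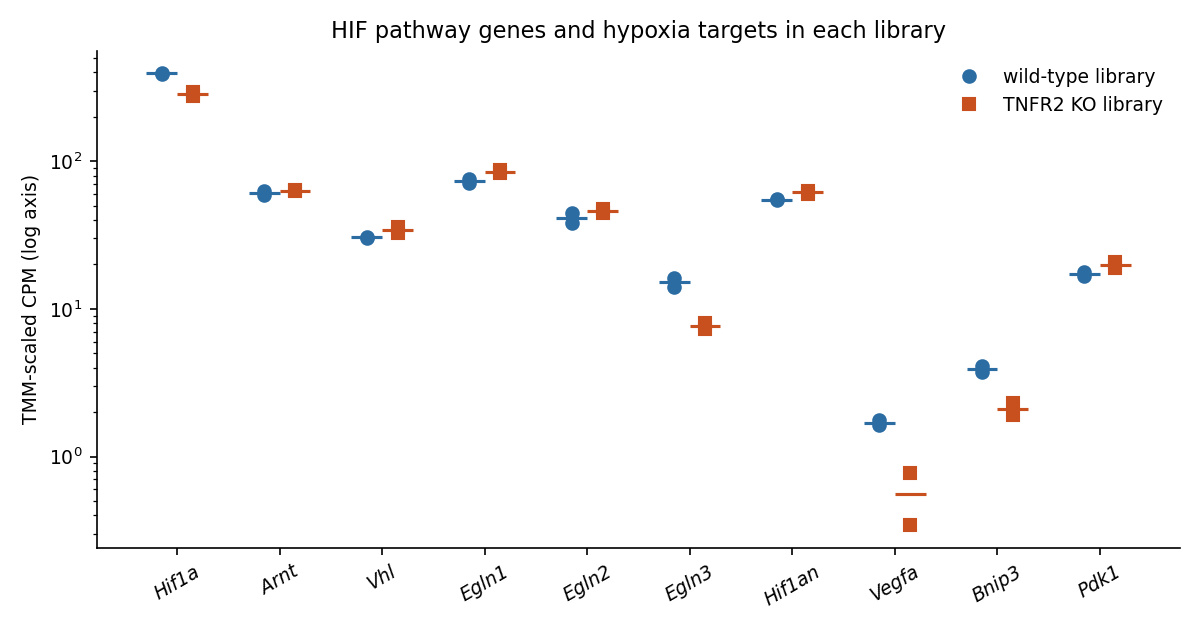
TMM-scaled CPM (log axis) of the 10 genes in each of the 4 libraries, with wild-type libraries as blue circles, TNFR2 KO libraries as orange squares and a line at each group mean. Hif1a averaged 393 CPM in wild-type cells and 284.5 CPM where TNFR2 was missing, and Vegfa was under 2 CPM throughout. TMM scaling is used, and scaling on NK lineage genes puts all 10 lower in TNFR2 KO cells, with 10878 of all 13822 genes.

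The HIF subunits differed from each other. Hif1a, the oxygen-regulated subunit (chr12:73901375-73947530, plus strand), was at 392.2 and 393.7 in the wild-type pair and 292.1 and 276.9 CPM in the TNFR2 KO pair. Both TNFR2 KO libraries were below both wild-type libraries. Its mean was 393 ± 1.13 CPM (SD, n = 2) against 284.5 ± 10.8 CPM (SD, n = 2), a log2-fold change of -0.47 (SE 0.0292, 95% interval -0.53 to -0.40, adjusted p = 5.06e-08). Within the pools the log2 differences were -0.43 and -0.51. Of all genes tested, 19.8% had a log2-fold change as low as that of Hif1a or lower. The small share of its 31-base stretches found in other genes, 2.04%, lay mostly in Gm49321, an overlapping gene model.

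Arnt, the constant partner (chr3:95434388-95497240, plus strand), was at 62.9 and 59.4 in the wild-type pair and 62.4 and 63.5 CPM in the TNFR2 KO pair. It was the only one of the 10 genes whose groups overlapped. Its log2-fold change was 0.04 (SE 0.0437, 95% interval -0.05 to 0.14, adjusted p = 0.470) and turned to -0.02 with library size alone and to -0.47 on the NK lineage scale. The interval at the main scaling leaves room for a difference of up to 0.14. Within a library, where scaling plays no part, the ratio of Hif1a to Arnt counts was 6.24 and 6.63 in wild-type and 4.68 and 4.36 in TNFR2 KO libraries. Hif1a was thus lower relative to its partner in both TNFR2 KO libraries. The gene pairs used for ratios were chosen after the values were seen.

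Of the oxygen sensors, Egln1 and Egln3 moved in opposite directions. Egln1, the main prolyl hydroxylase acting on HIF-1α (chr8:124908587-124949324, minus strand), was at 71.7 and 75.3 in the wild-type pair and 83.5 and 86.8 CPM in the TNFR2 KO pair. Both TNFR2 KO libraries were above both wild-type libraries, with within-pool log2 differences of 0.22 and 0.20. The log2-fold change was 0.21 (SE 0.0407, 95% interval 0.12 to 0.30, adjusted p = 0.000949), which was -0.30 with scaling on NK lineage genes.

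Egln3, a hydroxylase that is itself induced by hypoxia (chr12:54178981-54203860, minus strand), was at 16.2 and 14.2 in the wild-type pair and 7.26 and 8.05 CPM in the TNFR2 KO pair. The groups did not overlap, and in the edgeR fit the wild-type level was 1.99-fold that of TNFR2 KO cells. Its log2-fold change was -0.99 (SE 0.110, 95% interval -1.23 to -0.75, adjusted p = 1.03e-05), just short of the threshold of 1, and 12.8% of all genes were as low or lower. The ratio of Egln3 to Egln1 counts within a library was 0.227 and 0.188 in wild-type and 0.087 and 0.0928 in TNFR2 KO libraries.

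Egln2, the third hydroxylase of this family (chr7:27158658-27166802, minus strand), was at 38.2 and 44.6 in the wild-type pair and 47.5 and 44.9 CPM in the TNFR2 KO pair. Wild-type replicate 2 lay just below TNFR2 KO replicate 2, so the log2 difference was 0.01 in that pool and 0.31 in the other. Egln2 did not pass the test (log2-fold change 0.16, SE 0.0675, 95% interval 0.01 to 0.31, adjusted p = 0.0693), although it did in the paired fit with the replicate block (0.16, adjusted p = 0.0361). Without wild-type replicate 2 its adjusted p was 0.00171, and without TNFR2 KO replicate 2 it was 0.00755.

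Hif1an, which encodes FIH (chr19:44562850-44576274, plus strand), was at 55.7 and 54.4 in the wild-type pair and 59.7 and 63.3 CPM in the TNFR2 KO pair. It was higher in both TNFR2 KO libraries (log2-fold change 0.16, SE 0.0451, adjusted p = 0.0113), but the call was lost without TNFR2 KO replicate 2 (adjusted p = 0.0687), and the value was -0.35 with scaling on NK lineage genes. Vhl, the ligase subunit that recognises hydroxylated HIF-1α (chr6:113623959-113631633, plus strand), was at 30.8 and 30.4 in the wild-type pair and 32.9 and 36.1 CPM in the TNFR2 KO pair. It too was higher in both (log2-fold change 0.17, SE 0.0589, adjusted p = 0.0301), with -0.34 under scaling on NK lineage genes. Its call was lost without wild-type replicate 2 (adjusted p = 0.079) and without TNFR2 KO replicate 2 (0.219).

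Among the targets, Vegfa and Bnip3 were lower and Pdk1 was not. Vegfa (chr17:46016993-46032369, minus strand) was at 1.63 and 1.76 in the wild-type pair and 0.776 and 0.343 CPM in the TNFR2 KO pair, from 62 and 65.3 counts against 30.1 and 11. The groups did not overlap, but the TNFR2 KO libraries differed from each other by more than the wild-type pair. The log2-fold change was -1.57 (SE 0.375, 95% interval -2.39 to -0.75, adjusted p = 0.00414). It was -2.29 without TNFR2 KO replicate 1 and -1.12 without TNFR2 KO replicate 2, and within pools it was -1.08 and -2.36. At this depth the size of the difference is therefore poorly known. The 95% interval of the fit was wider than the spread of these values.

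Bnip3 (chr7:138890836-138909519, minus strand) was at 3.72 and 4.10 in the wild-type pair and 2.30 and 1.90 CPM in the TNFR2 KO pair. Both TNFR2 KO libraries were below both wild-type libraries, by 1.85-fold in the edgeR fit (log2-fold change -0.89, SE 0.192, adjusted p = 0.00215). Its count is uncertain, because 20.3% of its 31-base stretches also occur in other genes, mostly in Gm16439. Bnip3l, the related mitophagy receptor (also called NIX), differed in the other direction at the main scaling, with a log2-fold change of 0.30, and the ratio of Bnip3 to Bnip3l counts was 0.0652 and 0.0761 in wild-type and 0.0323 and 0.0293 in TNFR2 KO libraries.

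Pdk1 (chr2:71873224-71903858, plus strand) was at 17.7 and 16.8 in the wild-type pair and 18.9 and 20.7 CPM in the TNFR2 KO pair. This target was slightly higher in both TNFR2 KO libraries (log2-fold change 0.20, SE 0.0759, 95% interval 0.03 to 0.37, adjusted p = 0.0459), and the value was -0.31 with scaling on NK lineage genes. The call was lost without wild-type replicate 1 (adjusted p = 0.0528), without wild-type replicate 2 (0.189) and without TNFR2 KO replicate 2 (0.231). The ratio of Pdk1 to Pdk3, another kinase of this family, was 0.275 and 0.268 in wild-type and 0.335 and 0.357 in TNFR2 KO libraries.

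**Figure D2:**
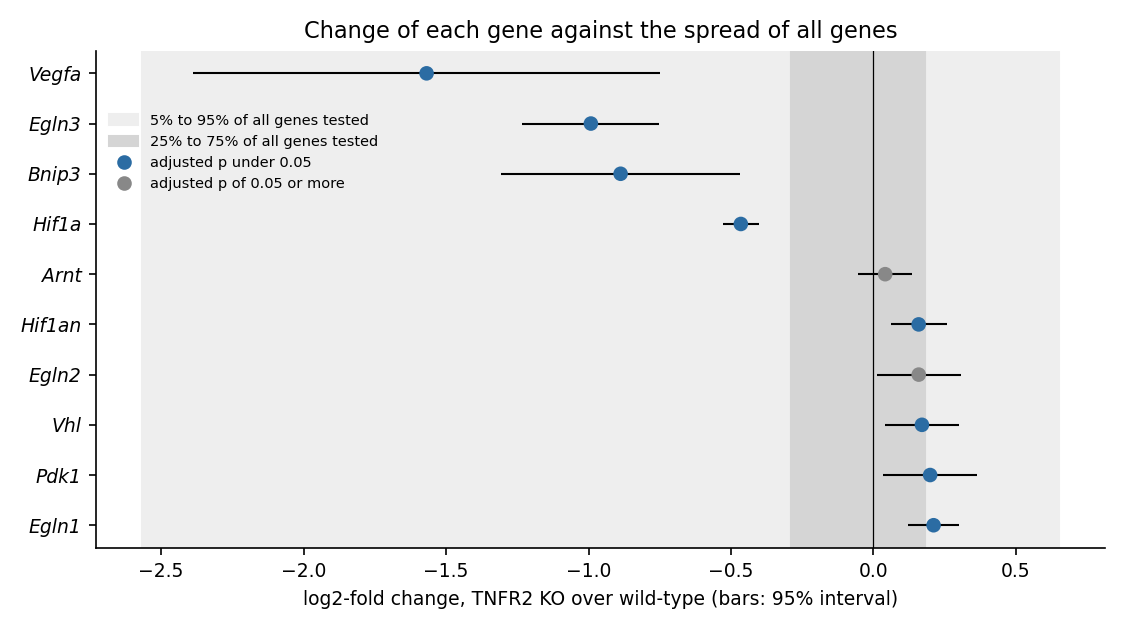
Log2-fold change of each gene (TNFR2 KO over wild-type at TMM scaling, x axis) with 95% intervals from the edgeR fit, set on grey bands that hold 50% and 90% of all genes tested. Vegfa, Egln3, Bnip3 and Hif1a lie left of the 25% point of all genes (-0.29), and the genes on the right reach at most 0.21 and turn negative with scaling on NK lineage genes.

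Per kilobase of the longest protein-coding transcript, Hif1a had the highest level of the 10 genes, at 83.2 CPM per kb in wild-type and 60.2 in TNFR2 KO cells. In wild-type cells the order continued with Egln1 (20.5), Egln2 (19.7), Arnt (14.1), Vhl (10.96), Hif1an (8.89), Egln3 (5.71), Pdk1 (3.32), Bnip3 (2.23) and Vegfa (0.492 CPM per kb). Only Egln1 and Egln2 could not be ordered there, since Egln2 was at 18.1 and 21.2 and Egln1 at 19.95 and 20.95 CPM per kb in the single libraries. In TNFR2 KO cells Egln3, at 2.88, came below Pdk1, at 3.82 CPM per kb, and the rest of the order was as in wild-type cells. These levels depend on which transcript of each gene is taken as its length.

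The genes whose profile over the 4 libraries lay closest to that of Hif1a, by Euclidean distance of centred log2 CPM over 8755 genes, were Slc45a4 (0.0121), Cyth3 (0.0192) and Srgap2 (0.0303). Slc45a4 was at 47.3 and 47.6 in the wild-type pair and 35.1 and 33.1 CPM in the TNFR2 KO pair. Cyth3 had the same log2-fold change as Slc45a4, -0.48, and Srgap2 had -0.44. Only 4 libraries enter this distance, and those of 1 genotype share their condition.

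**Figure D3:**
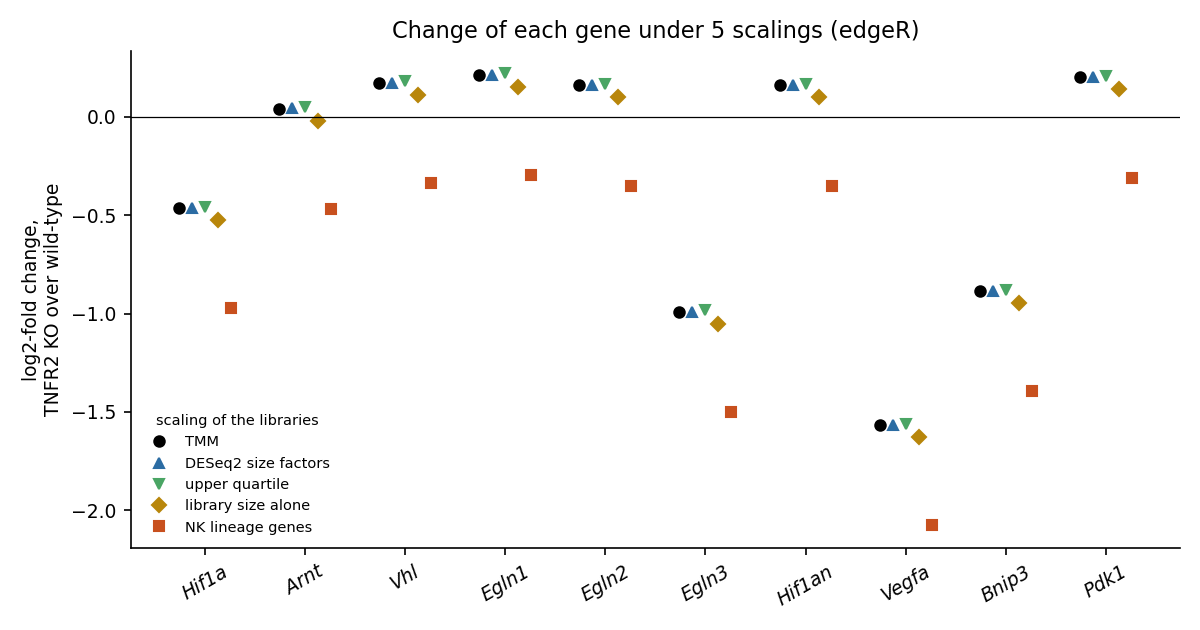
Log2-fold change of the 10 genes (y axis, TNFR2 KO over wild-type) in edgeR under 5 ways of scaling the libraries, each with its own symbol. Hif1a, Egln3, Vegfa and Bnip3 were negative under all 5, whereas Vhl, Egln1, Egln2, Hif1an and Pdk1 were positive under 4 and negative only on the NK lineage scale, where the median of all genes was -0.511.

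The sign of the smaller differences depended on scaling. Scaling on 32 NK lineage genes in place of TMM moved the median over all genes from -0.003 to -0.511, and gave log2-fold changes of -0.97 for Hif1a, -1.50 for Egln3, -1.40 for Bnip3 and -2.08 for Vegfa. Rescaling moves all genes by nearly the same amount, so a gene's place relative to the median could hardly change. These 4 genes thus stayed below the shifted median. Vhl (-0.34), Egln1 (-0.30), Egln2 (-0.35), Hif1an (-0.35), Pdk1 (-0.31) and Arnt (-0.47) were all negative but above it.

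Other HIF subunits and regulators, a list of 13 tested genes without the 10 above, held 3 lower and 3 higher, with 7 that did not pass the test and a median log2-fold change of 0.13. Those counts are close to the shares over all genes, 26.2% lower and 24.2% higher. Library size alone gave 3 lower and 1 higher, beside 4388 lower and 2419 higher of all 13822 genes. The NK lineage scale gave 10 lower and 0 higher, beside 10878 lower and 375 higher of all genes. The largest fall was in Arnt2, a relative of Arnt, from 3.89 ± 0.0166 to 1.14 ± 0.0280 CPM (SD, n = 2 each; log2-fold change -1.76, adjusted p = 1.68e-05). Epas1, which encodes HIF-2α, was at 171.6 and 177.0 in the wild-type pair and 122.3 and 127.5 CPM in the TNFR2 KO pair. Its log2-fold change of -0.48 (adjusted p = 1.24e-07) was close to that of Hif1a, and the ratio of Hif1a to Epas1 counts overlapped between the groups, at 2.29 and 2.22 against 2.39 and 2.17. Both of these alpha subunits were lower while the ratio between them was not separated. Hif3a, the remaining alpha subunit, did not pass the test (log2-fold change 0.39, adjusted p = 0.381). The coactivator Ep300 (0.14, adjusted p = 0.00820) and the VHL partner Elob (0.20, adjusted p = 0.000172) were higher, and both were negative with scaling on NK lineage genes, at -0.37 and -0.31. The Ep300 call was lost without TNFR2 KO replicate 2 (adjusted p = 0.0526).

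Other genes known to be induced by hypoxia included members that were lower and members that were higher. Of 34 listed, 31 were tested, with Adm, Epo and Lox too low. There were 18 lower, 6 higher and 7 that did not pass the test, with 7 lower and 0 higher past both thresholds and a median of -0.33, on the TMM scale. Over all genes the shares were 26.2% lower and 24.2% higher, and 11.8% and 1.56% past both thresholds. The list thus held a larger share of lower genes than the background, and a share of higher genes that was no larger. On the NK lineage scale, 29 were lower and 1 was higher, beside 10878 lower and 375 higher of all 13822 genes.

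The largest fall in that list was in Nos2, the inducible nitric oxide synthase, at 4.83 and 5.15 in the wild-type pair and 0.439 and 0.375 CPM in the TNFR2 KO pair (log2-fold change -3.60, adjusted p = 8.10e-08). Trf, the iron carrier transferrin, followed with -3.02 (adjusted p = 3.75e-10), and Hmox1, a heme-degrading enzyme, with -2.53 (adjusted p = 1.39e-13). The most abundant gene of the list, the repressor Bhlhe40, was at 598.6 and 594.4 CPM against 622.8 and 635.2 CPM (log2-fold change 0.08, adjusted p = 0.0173), and was -0.43 with scaling on NK lineage genes. Its call was lost without wild-type replicate 2 (adjusted p = 0.0522) and without TNFR2 KO replicate 2 (0.0596). Ero1a, an oxidase of protein folding, was lower (-0.38, adjusted p = 4.93e-06).

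The 5 tested receptor and co-receptor genes for VEGF were lower. Of 7 tested ligands and receptors (Vegfd and Pgf were too low), 5 were lower, 0 higher and 2 did not pass the test. Over all genes the shares were 26.2% lower and 24.2% higher. The median log2-fold change of the 7 was -2.38. Nrp2, a co-receptor, was at 35.02 and 34.3 in the wild-type pair and 3.44 and 3.46 CPM in the TNFR2 KO pair (-3.33, adjusted p = 6.30e-12). The receptor genes Flt1 (-3.22), Kdr (-2.97) and Flt4 (-2.38) were also lower, with adjusted p of 1.03e-08, 2.72e-06 and 0.000379. The other co-receptor Nrp1 was lower by less (-0.51, adjusted p = 3.27e-06). The ligand gene Vegfb did not pass the test, at -0.13 on the log2 scale (adjusted p = 0.360), nor did Vegfc, at 0.65 (adjusted p = 0.118).

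Genes that work beside PDK1 and BNIP3 are given as counts, to be set beside the 26.2% lower and 24.2% higher of all genes at TMM scaling. In the pyruvate dehydrogenase complex and its kinases, 3 of 9 tested genes were lower, 1 was higher and 5 did not pass, with a median of -0.05. Only 1 was lower without wild-type replicate 1 or without TNFR2 KO replicate 1, and 0 were higher without wild-type replicate 2. DESeq2 called 0 of them in either direction, beside 2858 lower and 2555 higher of all 13822 genes. The NK lineage scale gave 8 lower and 0 higher, on which 10878 of all 13822 genes were lower and 375 higher. The most abundant of them, Pdha1, Dld and Pdhb, had log2-fold changes of -0.03, -0.05 and -0.03, and none passed the test (adjusted p = 0.525, 0.308 and 0.593). In a list of 9 tested mitophagy genes, 3 were lower, 4 higher and 2 did not pass, with a median of 0.02, while all 9 were lower on the NK lineage scale. Fkbp8, a mitochondrial autophagy receptor, was among the higher ones (0.17, adjusted p = 0.000355), at -0.34 with scaling on NK lineage genes. Sqstm1 (0.02) and Phb2 (-0.02), the other abundant genes of that list, did not pass the test.

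**Figure D4:**
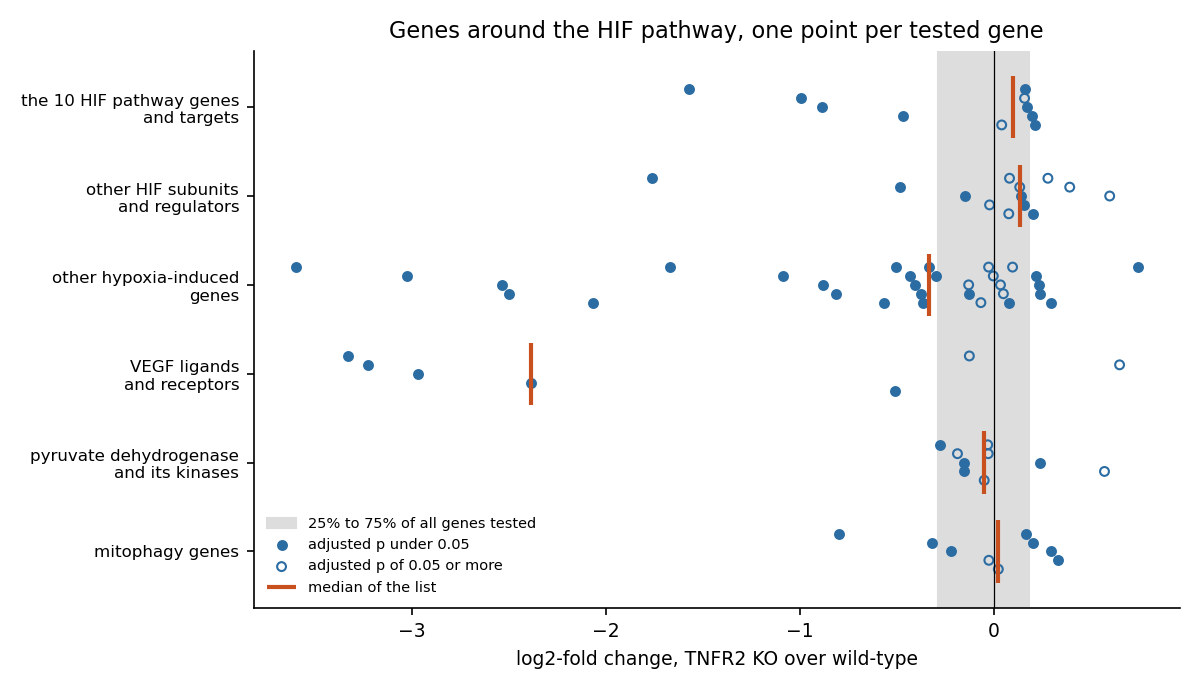
Log2-fold change (x axis, TNFR2 KO over wild-type at TMM scaling) of the 10 genes and of 5 lists around them, one point per tested gene, filled where the adjusted p was under 0.05, with the median in orange. The median was -2.38 for VEGF ligands and receptors and -0.33 for hypoxia-induced genes, and between -0.05 and 0.13 for the other lists, while scaling on NK lineage genes moves the median of all genes to -0.511.

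Markers of other cell types moved with the genotype, and several hypoxia targets and VEGF receptors are also expressed by myeloid or endothelial cells. Of 18 macrophage or monocyte genes, whose sums are given above, 17 were lower and Ccr2 was higher. In the sums that follow, wild-type comes before TNFR2 KO and every listed gene is included except 1 of 10 erythroid genes that the table does not name. Neutrophil genes were lower for 15 of 15, with sums of 1042 to 1059 against 105 to 110 CPM. Mast cell or basophil genes were lower for 9 of 10 (1276 to 1279 against 102 to 103 CPM). Cma1 was instead higher, at a mean of 22.5 against 72.6 CPM (log2-fold change 1.69, adjusted p = 3.61e-11), and made up most of the TNFR2 KO sum. Dendritic cell or class II genes were lower for 5 of 8 (1713 to 1751 against 146 to 148 CPM) and erythroid genes for 9 of 9 (275 to 280 against 57.0 to 60.6 CPM). The 9 listed stromal or endothelial genes, Kdr among them, summed to 5.77 to 6.29 against 1.59 to 2.53 CPM, with 3 lower and 0 higher of 5 tested. Kdr, itself a VEGF receptor gene given above, made up 2.85 and 3.39 CPM of the wild-type sums. The 2 that did not pass were the endothelial gene Cdh5 (log2-fold change 0.29, adjusted p = 0.713) and Col1a1 (-0.62, adjusted p = 0.264). T cell genes fell less, from 805 to 811 down to 651 to 656 CPM, with 4 of 5 lower and Cd3g higher (0.098, adjusted p = 0.0112). Of 5 B cell genes (3.16 to 3.28 against 2.27 to 2.37 CPM) the 1 tested, Cd79b, was lower. The 12 NK-defining genes were higher, 12 of 12, with sums of 15924 to 15999.8 against 29071 to 29330 CPM, and none of them was at 0. The most abundant gene of each list in wild-type cells had log2-fold changes of -2.79 for Lyz2, -6.50 for Mpo, -6.18 for Prss34, -2.39 for Hba-a1, -3.57 for Cd74, -2.97 for Kdr, -0.56 for Cd4, -0.65 for Cd79b (not called without wild-type replicate 1 or 2) and 1.08 for Gzma. Of the other lists' markers, only the B cell gene Pax5 was at 0 in both wild-type libraries. The part of these cell types in the lower Hif1a, Epas1, Egln3, Vegfa, Bnip3, Nos2, Hmox1 and VEGF receptor values was not tested.

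**Figure D5:**
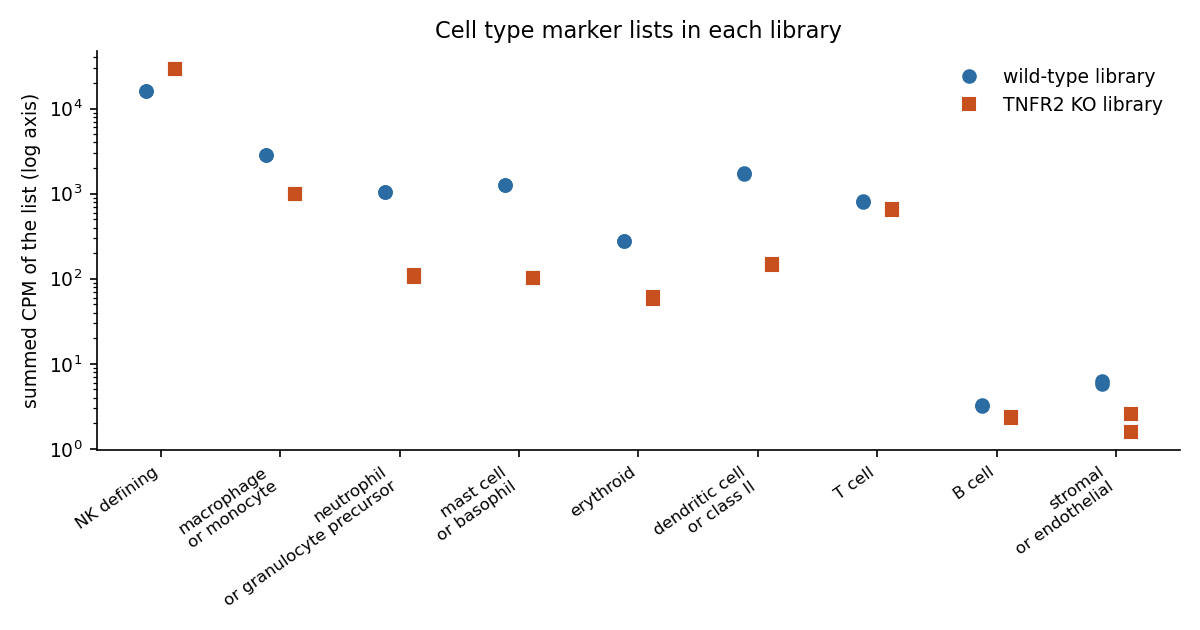
Summed CPM (log axis) of each cell type marker list in the 4 libraries, with wild-type libraries as blue circles and TNFR2 KO libraries as orange squares. NK-defining genes were higher in TNFR2 KO libraries and the summed levels of the other lists were lower at TMM scaling.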

How the data were processed

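Poly-A selected, stranded RNA of the 4 libraries was sequenced in pairs. The authors trimmed reads with Trimmomatic 1.4, quantified them against mm10 with Kallisto 0.46.1 and summed them per gene with Tximport, and they deposited estimated counts (expected counts) per symbol, unscaled. The sources used here do not name the transcript annotation, and isoform assignment can move counts between gene models that share sequence. Totals were 32713256 to 39543650 counts, of which a row without a gene name took 0.0559% to 0.0728% and was left out.

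Counts were rounded, filtered with filterByExpr, scaled with TMM and tested with edgeR 4.0.16 (R 4.3.3), quasi-likelihood, genotype only, Benjamini-Hochberg adjusted over all 13822 genes. Thresholds were an adjusted p under 0.05 and, for both, an absolute log2-fold change over 1. Intervals are 95%, unadjusted, from the fit. With 2 against 2 libraries an exact two-sided permutation p cannot go below 0.333. Duplicates differed by more than sampling noise (chi-square per gene 3.29 and 3.49, where noise alone gives about 1), and the biological coefficient of variation was 3.33%. On simulated counts of 13716 genes for this comparison, with 200 changed, edgeR recovered 91% at an absolute log2-fold change of 1 and 100% at 2 with 9 false calls, and DESeq2 78% and 96.9% with 1. Those 200 genes changed equally in both directions at a common dispersion, whereas 6965 of 13822 genes were called in the data. These rates need not hold here, and the simulation does not address smaller differences or the choice of scaling.

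Labels say that same-numbered libraries shared a pool, so the numbers pair the samples, and their deviations had a correlation of 0.029 across genes. Alternatives tried were scaling by DESeq2's size factors, upper quartile, library size alone and NK lineage genes, DESeq2 1.42.0, other filters, the replicate block and each library left out. Genes named are Tnfrsf1b, the 10 genes, up to 4 genes past both thresholds with the largest change and the 3 most abundant of each context list, the most abundant gene of each marker list and the 3 genes most like Hif1a. 1 gene that this rule picks is not reported here. Bnip3l, Pdk3, Hif3a, Vegfc, Ccr2, Cma1, Cd3g, Cdh5, Col1a1, Pax5, Adm, Epo, Lox, Vegfd and Pgf were named after their values were seen. Members and lists were chosen with earlier results of these data known. Loci are from GENCODE M21 on GRCm38 and promoters from RefSeq GRCm38.p6. Plots used matplotlib 3.10.9 under Python 3.11.15.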

Additional observations from a re-analysis of the deposited data

How the results depend on the processing

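Hif1a and Egln3 kept their direction and call in 12 of 12 alternatives, and Vegfa and Bnip3 in 11 of 11, since a mean of at least 10 CPM leaves both out of the test. Leaving out each library in turn gave -0.49 to -0.42 for Hif1a, -1.08 to -0.88 for Egln3, -1.03 to -0.76 for Bnip3 and -2.29 to -1.12 for Vegfa. The 4 higher genes were fewer with library size alone (1), with DESeq2 (1) and with at least 10 CPM (2, with 2 lower). Leaving out each library in turn gave 0.11 to 0.25 for Vhl, 0.18 to 0.26 for Egln1, 0.12 to 0.21 for Hif1an and 0.14 to 0.27 for Pdk1. The calls of Vhl, Hif1an and Pdk1 were lost in some of those fits, as given above. The paired fit with the replicate block gave 4 lower and 5 higher, adding Egln2 (0.16). It changed no other call among the reported genes that the naming rule picks. Scaling on NK lineage genes gave 10 lower and 0 higher of the 10 genes and 10878 lower and 375 higher of all, and turned Arnt (-0.47), Vhl (-0.34), Egln1 (-0.30), Egln2 (-0.35), Hif1an (-0.35), Pdk1 (-0.31), Ep300 (-0.37), Elob (-0.31), Bhlhe40 (-0.43), Fkbp8 (-0.34) and Sqstm1 (-0.49) negative. Library size alone turned Arnt (-0.0197) and Sqstm1 (-0.0371), and at least 10 CPM turned Sqstm1 (-0.0123). Pdhb ran from -0.0472 to 0.00739 and Pdha1 from -0.0674 to 0.0172 without single libraries. With at least 10 CPM, 480 of 8765 genes passed both thresholds, against 1842 of 13822. Fewer genes were tested there, and a smaller share of them passed. Of the 32 NK lineage genes used for scaling, 28 were themselves higher and 1 lower in TNFR2 KO cells at TMM scaling. Their sums were 9984 to 10010 CPM in wild-type and 14196 to 14254 CPM in TNFR2 KO libraries. Scaling on these genes sets such sums equal. Why they differ between the genotypes was not tested. Vegfa, with 11 counts in a TNFR2 KO library, is limited by depth. Groups of 2 libraries are too small to look for libraries that stand apart gene by gene.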
